A study of Homo sapiens with 9 samples.

Results

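Non-muscle myosin II was examined through 10 genes: the heavy chain genes MYH9, MYH10 and MYH14, the essential light chain genes MYL6 and MYL6B, the regulatory light chain genes MYL12A and MYL12B, the kinase genes ROCK1 and ROCK2, and the phosphatase subunit gene PPP1R12A. They were chosen by their gene symbols, and all 10 were among the 18364 genes of the deposited table. RNA was sequenced from 9 tumours of LN229, an established human glioblastoma cell line, grown in the brains of nude mice and taken at the terminal stage. The study activated TAZ through TAZ-4SA in the cells of 6 tumours, while 3 control tumours had an empty vector (EV). TAZ, encoded by WWTR1, is a co-activator through which the Hippo pathway acts on TEAD-bound genes. The comparison asked what TAZ activation alters in glioblastoma. The sources used here do not say which promoter drives TAZ-4SA, whether either line is a single clone, how tumours map to animals, the age of the animals, or whether mouse reads were separated from human ones. Nude mice lack mature T cells but keep vessels, microglia and macrophages.

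Non-muscle myosin II is a motor built from a pair of heavy chains, each carrying an essential and a regulatory light chain, and it pulls on actin filaments to drive cell contraction, cell division and migration. Its activity is set largely by phosphorylation of the regulatory light chain, which the kinases ROCK1 and ROCK2 and the myosin light chain kinase MYLK promote. Myosin phosphatase, made of a catalytic subunit and the targeting subunit encoded by PPP1R12A, removes that phosphate, and ROCK inhibits it. In glioblastoma, myosin II is known for its part in squeezing invading cells through the narrow spaces of the brain. Tension carried by actin and myosin II is also a known upstream input to YAP and TAZ.

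WWTR1 averaged 331 ± 74.6 CPM in TAZ-4SA tumours and 120 ± 3.17 CPM in EV tumours (SD, n = 6 and 3), where CPM is the read count scaled to library size by the authors. The groups did not overlap, and the difference of 1.44 on the log2 scale had a two-sided exact permutation p of 0.02381, the smallest that the 84 arrangements can give. The TAZ-4SA libraries held 3144861 to 31468135 reads and the EV libraries 17314672 to 21576264. Genes with 0 reads numbered 2990 to 7365 per TAZ-4SA library and 505 to 622 per EV library, but each of the 10 myosin II genes had reads in every library, at least 76 (MYH14 in TAZ-4SA tumour 6). Among 4603 genes at 50 to 5000 CPM, the median SD of log2 CPM was 0.68 across TAZ-4SA tumours and 0.20 across EV tumours. Of 8 markers listed for the glioblastoma line, 1 was higher (EGFR), 2 were lower (NES and S100B) and 5 were not called by the test described next. VIM stood at 2250 ± 497 CPM in TAZ-4SA tumours and 1820 ± 245 CPM in EV tumours, and GFAP at only 22.6 ± 40.8 CPM in TAZ-4SA tumours and 12.6 ± 6.97 CPM in EV tumours.

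Of the 10 genes, 5 were higher in TAZ-4SA tumours (MYH9, MYL12A, ROCK1, ROCK2 and PPP1R12A), 2 were lower (MYH14 and MYL6) and 3 were not called (MYH10, MYL6B and MYL12B). A call means an adjusted p under 0.05 from limma, fitted to the log2 CPM of all 15578 genes whose mean reached 1 CPM and adjusted over all of them by the Benjamini-Hochberg method. Across those genes 9.02% were called higher and 13.3% lower, and the median log2 fold change of TAZ-4SA over EV was -0.85. The median over the 10 genes was 1.23. With the filter raised to 10 CPM, the median over all genes tested was -0.41, and 13.3% were called higher and 9.26% lower. In 8 of the 10 genes the groups were fully separate, 5 with every TAZ-4SA tumour above every EV tumour, which was so for 10.8% of all genes tested, and 3 with every TAZ-4SA tumour below, which was so for 21.3%. Scaling moves the balance of calls: with quantile normalization, 12.3% of genes were called higher and 10.4% lower, and the median over all genes was -0.15. The direction of each of the 10 genes was the same under every scaling tried.

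**Figure D1:**
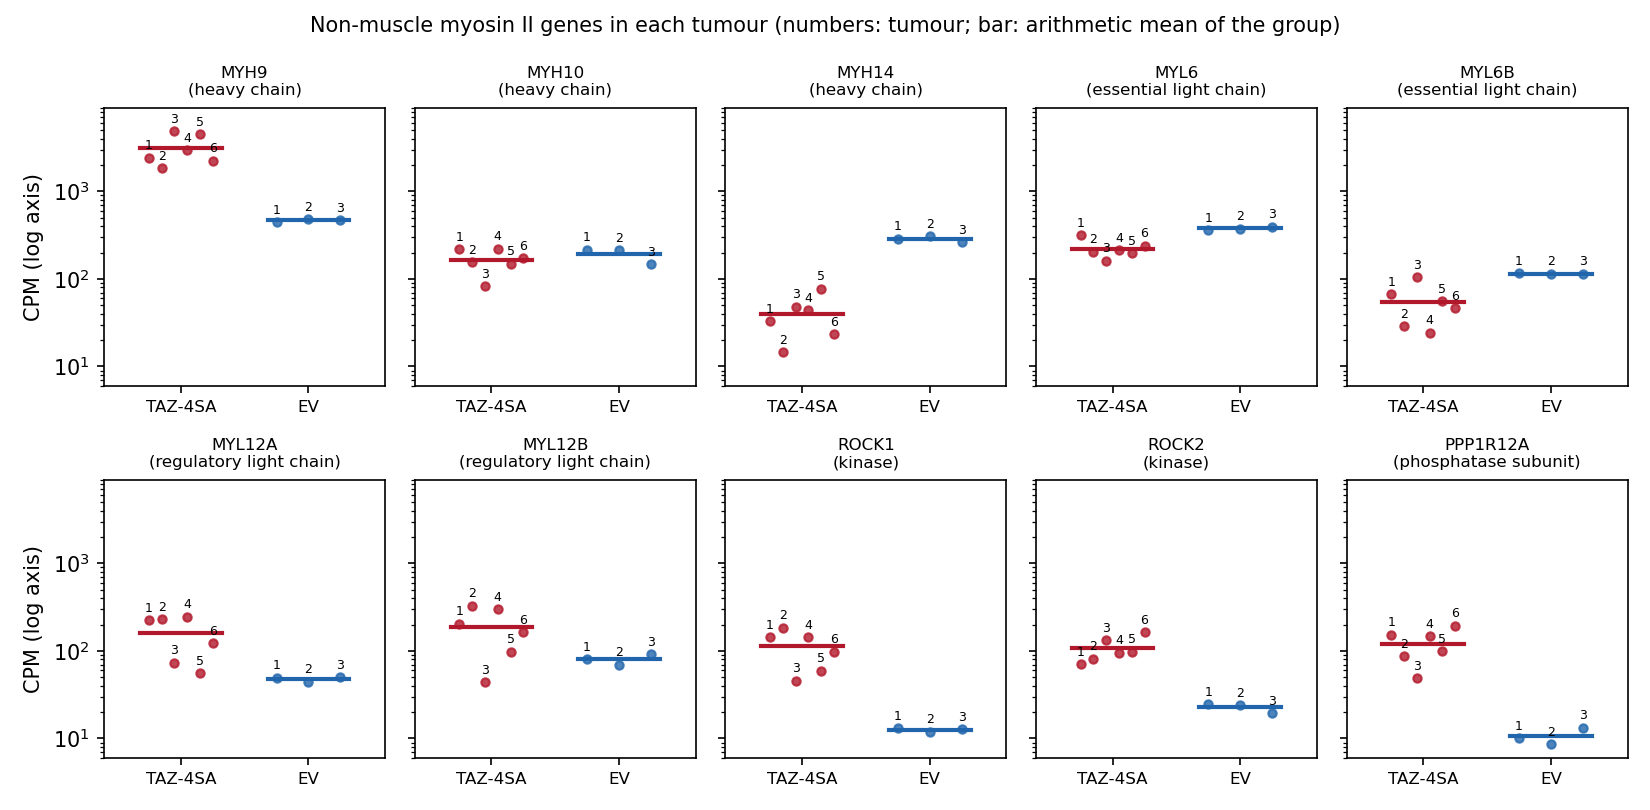
Expression of the 10 myosin II genes in CPM on a log axis, TAZ-4SA tumours in red and EV tumours in blue, each point 1 tumour with its number and each bar the arithmetic mean of its group. MYH9, ROCK1, ROCK2 and PPP1R12A lay higher in all TAZ-4SA tumours than in any EV tumour, MYH14 lay lower, and MYH10 and MYL12B overlapped.

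The 3 heavy chain genes went separate ways. MYH9, at chr22:36281280-36387967 (GRCh38), encodes the heavy chain of myosin IIA, the most widely expressed form. It had 1847 CPM in the lowest TAZ-4SA tumour, a median of 2695 CPM and 4910 CPM in the highest, against 445, 485 and 467 CPM in EV tumours 1 to 3. Every TAZ-4SA tumour was therefore above every EV tumour, with TAZ-4SA tumours 3 and 5 the highest. MYH9 averaged 3155 ± 1274 CPM in TAZ-4SA tumours and 466 ± 20.1 CPM in EV tumours, a log2 fold change of 2.67 ± 0.31 (SE; 95% interval 2.00 to 3.33; limma adjusted p = 0.000123). That change lay at the 96.6th percentile of all genes tested.

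MYH14, at chr19:50203622-50310540, encodes the heavy chain of myosin IIC. It had 14.6, 38.6 and 77.2 CPM in the lowest, median and highest TAZ-4SA tumours, against 289, 311 and 262 CPM in EV tumours 1 to 3. No TAZ-4SA tumour reached the EV range. The gene fell by 3.02 ± 0.46 on the log2 scale (SE; limma adjusted p = 0.000899), which is 8.14-fold. MYH10, at chr17:8474212-8630725, encodes the heavy chain of myosin IIB, the form prominent in brain. It had 82.6, 164 and 223 CPM in the lowest, median and highest TAZ-4SA tumours, against 217, 212 and 149 CPM in EV tumours 1 to 3, so the groups overlapped. Its log2 fold change was -0.26 with a 95% interval of -0.98 to 0.47 (limma adjusted p = 0.597, and 0.0441 to 0.861 over the alternatives). Changes within that interval, in either direction, were compatible with these data.

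Levels can be compared between genes after division by transcript length. Per kilobase, MYH9 stood at 418 ± 169 CPM in TAZ-4SA tumours and 61.6 ± 2.66 CPM in EV tumours (SD, n = 6 and 3). MYH10 stood at 21.8 ± 6.71 CPM per kilobase in TAZ-4SA tumours and 25.1 ± 4.93 in EV tumours, and MYH14 at 5.89 ± 3.25 in TAZ-4SA tumours and 42.1 ± 3.58 in EV tumours. The order of the heavy chain genes was thus MYH9, MYH10, MYH14 in the TAZ-4SA tumours and MYH9, MYH14, MYH10 in the EV tumours. The summed level of the 3 genes was 445 ± 167 CPM per kilobase in TAZ-4SA tumours, with a range of 267 to 668, against 129 ± 8.93 in EV tumours, with a range of 120 to 137.

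As a share of that sum within each library, which does not depend on how libraries are scaled, MYH9 made up 90.7% to 97.3% in TAZ-4SA tumours and 45.5% to 51.6% in EV tumours. MYH14 made up 0.804% to 1.79% in TAZ-4SA tumours and 32.1% to 33.2% in EV tumours. MYH10 made up 1.61% to 7.97% in TAZ-4SA tumours and 16.2% to 21.8% in EV tumours. None of the 3 shares overlapped between groups. A share also moves with the other heavy chains, and the level of MYH10 itself was not called.

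**Figure D2:**
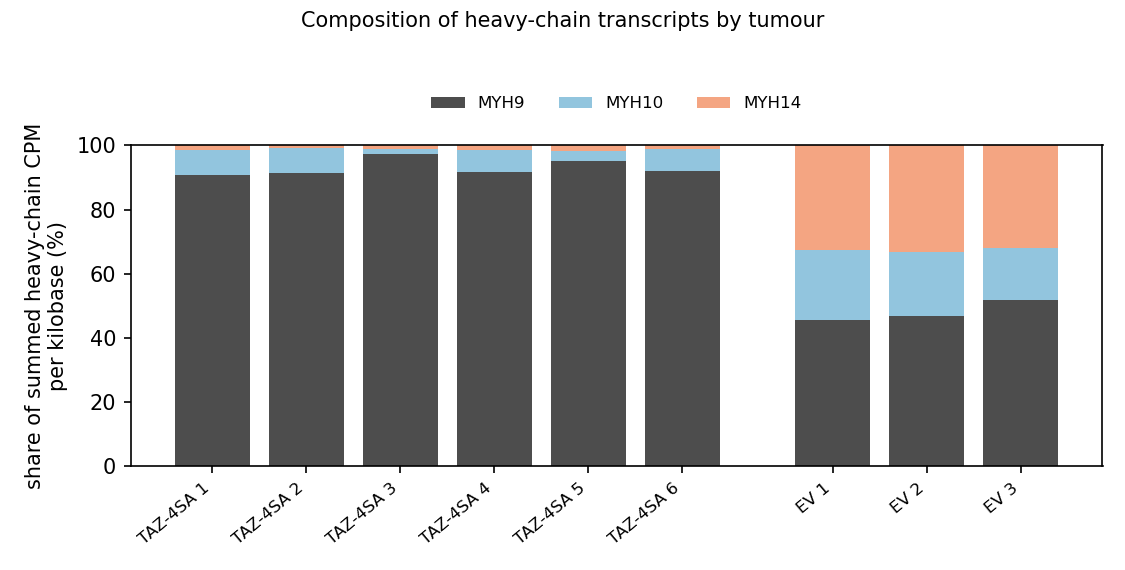
Share of MYH9, MYH10 and MYH14 in the summed heavy chain CPM per kilobase (%), 1 bar for each tumour, TAZ-4SA tumours at the left and EV tumours at the right. MYH9 held over 90% of the sum in the TAZ-4SA tumours, and MYH14 held about 32% to 33% in the EV tumours.

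The sequences just upstream of the 3 heavy chain genes are shown because their levels diverged under a co-activator of TEAD factors. Each runs 5′ to 3′ over the 250 bases before the annotated start on the strand of the gene (RefSeq, GRCh38.p14), and capitals mark GGAATG, the core of the TEAD motif, or its reverse complement. They lie at chr22:36387968-36388217 on the minus strand for MYH9, chr17:8630726-8630975 on the minus strand for MYH10 and chr19:50203372-50203621 on the plus strand for MYH14.
MYH9: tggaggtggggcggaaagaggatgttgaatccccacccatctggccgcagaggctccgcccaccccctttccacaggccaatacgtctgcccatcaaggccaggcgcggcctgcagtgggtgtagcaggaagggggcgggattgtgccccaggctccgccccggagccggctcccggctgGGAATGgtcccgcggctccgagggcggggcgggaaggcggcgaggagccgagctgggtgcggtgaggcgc
MYH10: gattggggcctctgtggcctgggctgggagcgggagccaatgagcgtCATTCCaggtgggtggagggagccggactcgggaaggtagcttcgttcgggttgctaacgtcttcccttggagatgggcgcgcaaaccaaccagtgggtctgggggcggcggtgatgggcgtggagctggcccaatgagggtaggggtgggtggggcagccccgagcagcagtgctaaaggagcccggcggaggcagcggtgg
MYH14: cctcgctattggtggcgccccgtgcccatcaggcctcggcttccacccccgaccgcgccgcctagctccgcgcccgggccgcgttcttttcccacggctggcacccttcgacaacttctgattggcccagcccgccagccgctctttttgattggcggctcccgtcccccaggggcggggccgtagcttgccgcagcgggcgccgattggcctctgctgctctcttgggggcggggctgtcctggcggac

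The match began 70 bases before the start in MYH9 and 203 bases before it in MYH10, and this window of MYH14 held none. Over windows from 250 bases before to 50 bases after the start, GGAATG on either strand was found in 5 of the 10 genes, namely MYH9, MYH10, MYL12A, ROCK2 and PPP1R12A. Several genes have more than 1 annotated start, and 6 of their 18 windows held a match. The motif was present in 15.35% of 12112 tested genes with a window and in 14.03% of all 35116 windows. Of the genes with a match, 4 were called higher and 1 (MYH10) was not called, while 12.37% of all tested genes with a match and 8.924% of those without one were called higher. Of the 5 genes without a match, ROCK1 was called higher. The AP-1 motif TGANTCA was found in 1 gene (MYL6B) and in 7.44% of tested genes, and the CArG box, which serum response factor binds, in 1 gene (ROCK2) and in 1.61% of tested genes. None of the 3 motifs overlapped another in these windows. A match describes letters only; binding was not measured.

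Of the essential light chain genes, MYL6 was called lower in TAZ-4SA tumours and MYL6B was not called. MYL6 encodes the main essential light chain outside striated muscle and lies at chr12:56158359-56161579 (GRCh38). It had 162, 209 and 314 CPM in the lowest, median and highest TAZ-4SA tumours, against 362, 377 and 395 CPM in EV tumours 1 to 3. The groups did not overlap, and the gene fell by 0.80 ± 0.25 on the log2 scale (SE; limma adjusted p = 0.0397). MYL6B, a second essential light chain gene just upstream at chr12:56152587-56157982, had 24.3, 50.8 and 104 CPM in the lowest, median and highest TAZ-4SA tumours, against 115.5, 115.4 and 114.5 CPM in EV tumours 1 to 3. All 6 TAZ-4SA tumours were below the EV range, but with a log2 fold change of -1.25 ± 0.44 (SE) the gene was not called (limma adjusted p = 0.0598).

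Both differences were near the middle of the whole table: MYL6 lay at the 51.2nd percentile of log2 fold changes and MYL6B at the 42.2nd. MYL6 was not called under quantile normalization (limma adjusted p = 0.0872), without TAZ-4SA tumour 4 or 6 (0.0581 and 0.0510), or without any 1 EV tumour (0.136 to 0.149), and its adjusted p over all alternatives ran between 0.00758 and 0.614. MYL6B was called without TAZ-4SA tumour 3 (limma adjusted p = 0.0181, and 0.00193 to 0.331 over the alternatives). MYL6 made up 69.3% to 92.7% of the 2 genes' summed CPM per kilobase in TAZ-4SA tumours and 81.9% to 83.3% in EV tumours, which overlapped.

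The regulatory light chain genes MYL12A and MYL12B, whose products carry the phosphorylated serine, are neighbours at chr18:3247482-3256237 and chr18:3262133-3278461. MYL12A had 56.3, 173 and 247 CPM in the lowest, median and highest TAZ-4SA tumours, against 49.7, 44.5 and 50.3 CPM in EV tumours 1 to 3. The lowest TAZ-4SA tumour was only just above the EV range. MYL12A rose by 1.50 ± 0.48 on the log2 scale (SE; 95% interval 0.45 to 2.55; limma adjusted p = 0.0427). MYL12B had 44.1, 184 and 329 CPM in the lowest, median and highest TAZ-4SA tumours, against 80.1, 69.5 and 92.6 CPM in EV tumours 1 to 3. The groups overlapped through TAZ-4SA tumour 3, and the log2 fold change of 0.96, with a 95% interval of -0.23 to 2.15, was not called (limma adjusted p = 0.222). Without that tumour MYL12B was called (limma adjusted p = 0.0326, and 0.00741 to 0.457 over the alternatives). MYL12A was not called without TAZ-4SA tumour 1, 2, 4 or 6 (limma adjusted p = 0.0712 to 0.0894) or without any 1 EV tumour (0.106 to 0.134). Over all alternatives its adjusted p ran between 0.000455 and 0.134.

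The coding sequences of the 2 genes are 95.7% identical (494 of 516 aligned bases), and 74 stretches of 50 bases occur in both, 15.8% of those of MYL12A and 15.7% of those of MYL12B. Reads from such stretches could be split between the genes by the authors' counting, so the values of each are uncertain relative to the other. A run of 90 coding bases, with the 1 base that differs in capitals, shows how close they are (coding bases 31 to 120 of MYL12A and 34 to 123 of MYL12B, GENCODE 29).
MYL12A: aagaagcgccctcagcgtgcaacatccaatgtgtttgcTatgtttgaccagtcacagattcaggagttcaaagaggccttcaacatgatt
MYL12B: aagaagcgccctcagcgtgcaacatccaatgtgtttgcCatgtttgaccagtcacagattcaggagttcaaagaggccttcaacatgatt

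The sum of both hardly depends on that split. It was 281 ± 155 CPM per kilobase in TAZ-4SA tumours, with a range of 95.2 to 451, against 104 ± 11.6 in EV tumours, with a range of 91.9 to 115, and the groups overlapped. MYL12A made up 36.9% to 62.9% of that sum in TAZ-4SA tumours and 35.6% to 39.4% in EV tumours, which also overlapped. The other light chain and heavy chain genes were less alike: MYL6 and MYL6B were 80.7% identical over their aligned coding bases and MYH9 and MYH10 73.5%, and neither pair had a stretch of 50 bases in common.

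Light chains were compared with heavy chains within each library. The log2 ratio of summed essential light chain to summed heavy chain CPM per kilobase was -0.57 ± 0.66 in TAZ-4SA tumours and 1.98 ± 0.14 in EV tumours (SD, n = 6 and 3), and the groups did not overlap. Relative to heavy chain transcripts, essential light chain transcripts were 5.84-fold lower in TAZ-4SA tumours. The ratio sets short transcripts against long ones, and the change differed with transcript length across the whole table. With a trend on length removed within each tumour, the ratio was -0.07 ± 0.55 in TAZ-4SA tumours and 1.11 ± 0.24 in EV tumours, still without overlap, and the difference shrank to 2.26-fold. The same ratio for the regulatory light chains was -0.81 ± 1.43 in TAZ-4SA tumours and -0.32 ± 0.26 in EV tumours, with overlap. It ranged from -2.81 to 0.76 among TAZ-4SA tumours. Its difference of -0.50 turned to 0.88 with the length trend removed, again with overlap.

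TAZ-4SA tumours 3 and 5 stood apart within their group on both sides of that ratio. They had the highest MYH9 levels, at 4910 and 4545 CPM, and the lowest MYL12A levels, at 73.6 and 56.3 CPM. ROCK1 was also lowest in these tumours, at 45.7 and 59.6 CPM, against 98.1 to 185 CPM in the other 4 of that group. Of these libraries, tumour 3 held 16030692 reads and 6790 genes at 0 reads, and tumour 5 held 3299325 reads and 2990 genes at 0 reads. TAZ-4SA tumour 3 also had the lowest MYH10 and MYL6 levels and the highest MYL6B level of its group.

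The kinases and the phosphatase subunit that set the phosphorylation of the regulatory light chain were all called higher. ROCK1 lies at chr18:20946906-21111813 and had 45.7, 120 and 185 CPM in the lowest, median and highest TAZ-4SA tumours, against 13.1, 12.0 and 12.8 CPM in EV tumours 1 to 3. The groups were far apart, and ROCK1 rose by 2.98 ± 0.46 on the log2 scale (SE; limma adjusted p = 0.000951). ROCK2, at chr2:11179759-11345437, had 70.8, 96.8 and 165 CPM in the lowest, median and highest TAZ-4SA tumours, against 24.6, 24.1 and 19.3 CPM in EV tumours 1 to 3. It rose by 2.18 ± 0.35 (SE; limma adjusted p = 0.00106), and no TAZ-4SA tumour came near the EV range. PPP1R12A, at chr12:79773563-79935460, had 48.6, 123 and 194 CPM in the lowest, median and highest TAZ-4SA tumours, against 10.1, 8.66 and 13.3 CPM in EV tumours 1 to 3. Its rise of 3.37 ± 0.44 (SE; limma adjusted p = 0.000324) was the largest of the 10 genes.

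Genes with opposite effects on the regulatory light chain thus both rose. The log2 ratio of summed ROCK1 and ROCK2 to PPP1R12A, per kilobase, was 0.34 ± 0.63 in TAZ-4SA tumours and 1.14 ± 0.42 in EV tumours (SD, n = 6 and 3), and the groups overlapped. ROCK1 made up 23.2% to 66.4% of the summed ROCK CPM per kilobase in TAZ-4SA tumours and 30.3% to 36.7% in EV tumours, also with overlap. In EV tumours the 3 genes were expressed at a low level, from 1.33 ± 0.06 CPM per kilobase for ROCK1 to 2.74 ± 0.35 for ROCK2, below each of the heavy and light chain genes.

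Over all 10 genes, MYH9 had the highest level per kilobase in TAZ-4SA tumours, followed by MYL6 at 246 ± 57.3, MYL12B at 152 ± 89.1, MYL12A at 129 ± 69.3 and MYL6B at 41.6 ± 22.3 CPM per kilobase (SD, n = 6). After MYH10 came PPP1R12A at 21.2 ± 9.23, ROCK2 at 12.9 ± 4.24 and ROCK1 at 11.9 ± 5.71, and MYH14 was last. Neighbours in that order differed by less than the larger of their SDs for MYL12B and MYL12A, MYL6B and MYH10, MYH10 and PPP1R12A, PPP1R12A and ROCK2, and ROCK2 and ROCK1. In EV tumours the order was led by MYL6 at 419 ± 18.3 and MYL6B at 88.2 ± 0.41, followed by MYL12B at 64.6 ± 9.24, MYH9, MYH14 and MYL12A at 39.2 ± 2.57 CPM per kilobase (SD, n = 3). MYH10, ROCK2, PPP1R12A and ROCK1 came after these. In that order MYL12B and MYH9, and MYH14 and MYL12A, differed by less than the larger of their SDs.

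**Figure D3:**
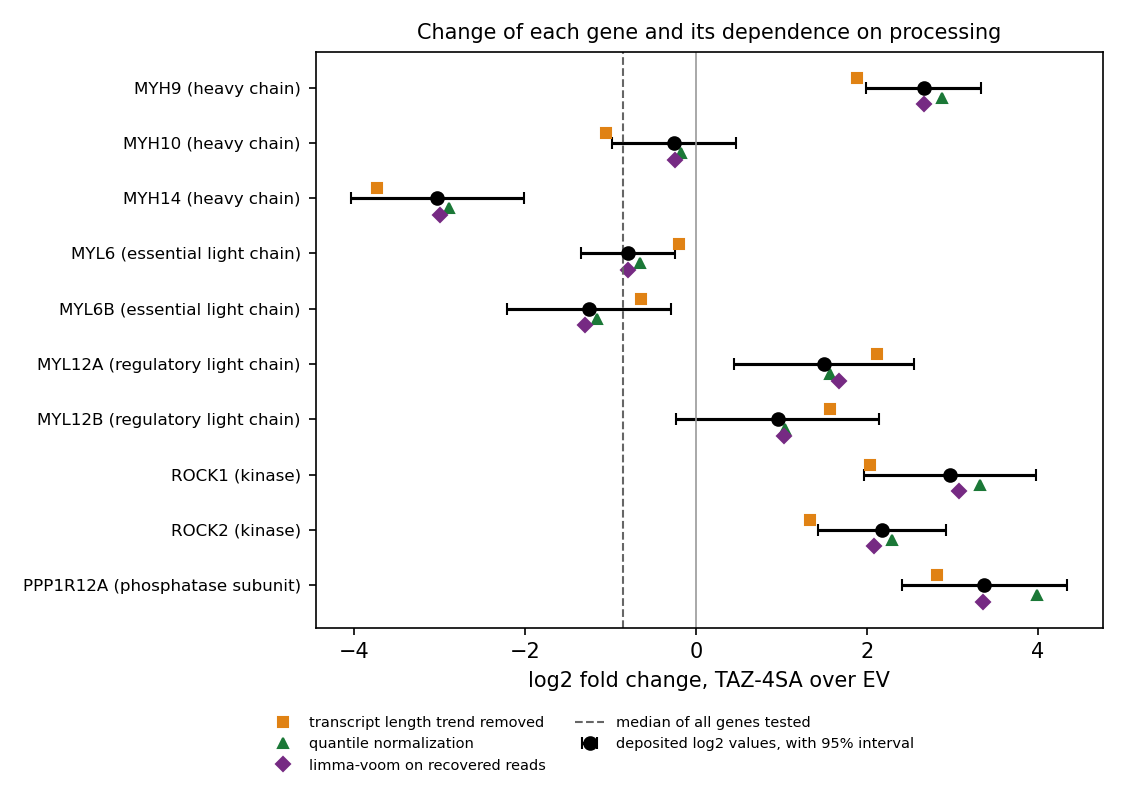
Log2 fold change of TAZ-4SA over EV for each gene, with the 95% interval in black, beside the same after removal of the transcript length trend (squares), under quantile normalization (triangles) and from limma-voom on recovered reads (diamonds). The dashed line is the median of all genes tested, -0.85. Removal of the length trend lowers the values of the long genes and raises those of the light chain genes, without turning any direction.

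Transcript length moved with the change across the whole table, and the 10 genes differ widely in it. Among 13953 tested genes with a known length, the median log2 fold change was -1.22 for 1708 genes under 1500 bases and -0.00039 for 3453 genes over 5000 bases. Of those, 1.70% were called higher under 1500 bases and 19.5% over 5000 bases. Among genes averaging at least 50 CPM, the shares were 4.34% and 36.4%. The 4 light chain transcripts are 901 to 1305 bases long, while the heavy chain, ROCK and PPP1R12A transcripts are 5721 to 9484 bases long. After a trend on length was removed within each tumour, MYH9 still rose by 1.88, ROCK1 by 2.04, ROCK2 by 1.33, PPP1R12A by 2.82 and MYL12A by 2.11 on the log2 scale, and MYH14 fell by 3.73. The call of MYL6 ended, at -0.20 (limma adjusted p = 0.614), and MYH10 became called lower, at -1.05 (limma adjusted p = 0.0441). The part of this length trend in the 10 genes beyond that correction was not tested.

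**Figure D4:**
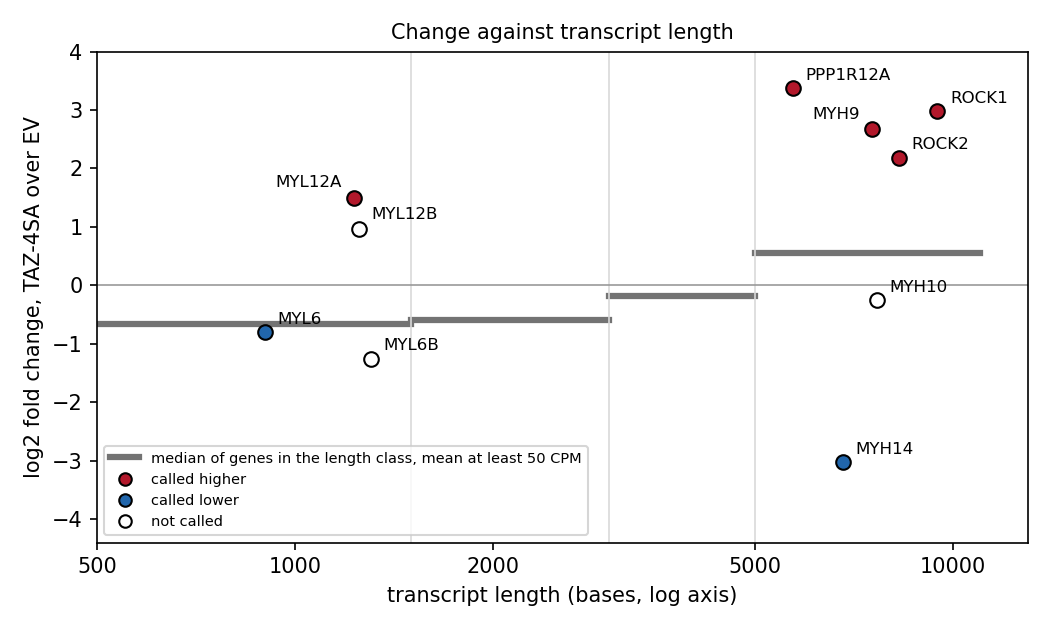
Log2 fold change of TAZ-4SA over EV against transcript length in bases (log axis) for the 10 genes, coloured by call, with grey bars at the median of all genes averaging at least 50 CPM in 4 length classes. MYL12A and MYL12B lie well above, and MYH14 well below, the median of genes of their length, while MYL6 lies near it.

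Markers of other cells were set beside these results. Of the microglia and macrophage markers, CD68 was higher, at 88.2 ± 38.2 CPM in TAZ-4SA tumours and 16.4 ± 5.51 CPM in EV tumours (SD, n = 6 and 3; limma adjusted p = 0.00412). The other 3 tested were not called and had log2 fold changes of -1.77 (ITGAM), 0.66 (CSF1R) and 0.78 (PTPRC), and TYROBP was below the filter. The 5 of 8 listed markers in the table summed to 54.7 to 142 CPM in TAZ-4SA tumours and 15.9 to 25.6 CPM in EV tumours, of which CD68 alone held 32.9 to 142 CPM in TAZ-4SA tumours and 12.6 to 22.7 CPM in EV tumours. PTPRC, the pan-leukocyte marker, was at 0 reads in 5 of 6 TAZ-4SA tumours and at 12.4 CPM in the other. It reached at most 0.0581 CPM in an EV tumour. The 9 smooth muscle and pericyte markers in the table summed to 86.8 to 276 CPM in TAZ-4SA tumours. In EV tumours they summed to 109 to 220 CPM. Of these markers, 1 was called higher (CNN1), 3 lower (LMOD1, SYNPO2 and KCNJ8) and 4 not, while DES was below the filter. LMOD1 and SYNPO2 had 0 reads in 4 of 6 TAZ-4SA tumours, and KCNJ8 in 5 of 6. The shares over all genes tested were 9.02% called higher and 13.3% called lower. The 7 skeletal muscle markers summed to 0 to 75.7 CPM in TAZ-4SA tumours and 28.1 to 32.8 CPM in EV tumours, and 1 of the 5 tested was called, lower. The 7 endothelial markers summed to 0 to 14.0 CPM in TAZ-4SA tumours and 14.2 to 17.4 CPM in EV tumours, without overlap. Of the 2 tested, ERG was called lower (limma adjusted p = 0.0157) and VWF was not called. ERG had a mean of 3.34 CPM in EV tumours and 0 reads in 5 of 6 TAZ-4SA tumours. Of all genes at 2 to 5 CPM in EV tumours, 30.6% had 0 reads in at least 5 TAZ-4SA libraries. The 6 neuronal markers summed to 84.7 to 1351 CPM in TAZ-4SA tumours and 39.9 to 157 CPM in EV tumours, and SYT1 alone was called, higher. The table holds human genes, while the hosts were mice. For these markers, mouse reads assigned to human genes and expression by the tumour cells cannot be told apart. The part of host cells in the 10 genes was not tested, and in bulk RNA fewer cells of a type and less RNA per cell cannot be told apart.

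Around these genes, 66 regulators and partners of myosin II were listed, of which 63 were tested. Of the 63, 16 were higher, 10 lower and 37 not called. The median log2 fold change of the 63 was 0.06, against -0.85 over all genes tested. With the filter raised to 10 CPM, the median over all genes tested was -0.41, with 13.3% called higher and 9.26% lower. Among genes averaging at least 50 CPM, 23.0% of those of 3000 to 5000 bases were called higher, and 36.4% of those over 5000 bases. The list was not matched to other genes for level or length. The number of regulators called lower was 4 without EV tumour 1 or EV tumour 2. In those fits 5.60% and 5.47% of all genes tested were called lower. With all 9 tumours and the filter at 1 CPM, 9.02% of all genes tested were called higher and 13.3% lower. The counts of the smaller lists below stand beside these 2 shares. RHOA, the GTPase that activates ROCK, had 254 ± 33.3 CPM in TAZ-4SA tumours and 269 ± 36.9 CPM in EV tumours (SD, n = 6 and 3), a log2 fold change of -0.09 (limma adjusted p = 0.809). RHOA was chosen for naming after its values were seen.

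RND3, whose product opposes ROCK1, rose to 253 ± 136 CPM in TAZ-4SA tumours, against 45.7 ± 12.8 CPM in EV tumours (log2 fold change 2.32, limma adjusted p = 0.00309). RHOC fell to 105 ± 50.9 CPM in TAZ-4SA tumours, against 299 ± 16.9 CPM in EV tumours (limma adjusted p = 0.00887). RND1 and RND2 were lower and had 0 reads in 5 of 6 TAZ-4SA tumours, with means of 2.88 and 22.5 CPM in EV tumours. Of all genes at 2 to 5 CPM in EV tumours, 30.6% had 0 reads in at least 5 TAZ-4SA libraries. At 10 to 50 CPM the share was 2.70%. RND1 was not called under quantile normalization (limma adjusted p = 0.200), nor RND2 without EV tumour 1, without EV tumour 2, or without TAZ-4SA tumours 2, 3 and 4.

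ARHGAP29, which encodes a GTPase-activating protein, had 250 ± 76.7 CPM in TAZ-4SA tumours and 17.4 ± 8.19 CPM in EV tumours (log2 fold change 3.88, limma adjusted p = 2.59e-05). ARHGEF28, which encodes a guanine nucleotide exchange factor, had 229 ± 95.9 CPM in TAZ-4SA tumours and 13.5 ± 1.34 CPM in EV tumours (log2 fold change 3.97, limma adjusted p = 2.76e-05). ECT2, an exchange factor that acts in cytokinesis, was also higher (2.95), whereas ARHGEF11, an exchange factor coupled to G proteins, fell to 71.4 ± 36.6 CPM in TAZ-4SA tumours, against 426 ± 42.4 CPM in EV tumours.

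Of 12 other kinase genes, 2 were higher and 1 lower. MYLK, the calcium and calmodulin-dependent kinase of the regulatory light chain, had 284 to 440 CPM in TAZ-4SA tumours and 6.16 to 7.54 CPM in EV tumours. Its log2 fold change of 5.50 ± 0.28 (SE; limma adjusted p = 1.45e-07) exceeded that of each of the 10 genes. PAK2 was higher (1.26), but not without EV tumour 1 or EV tumour 3, without TAZ-4SA tumours 2, 3 and 4, or with the length trend removed, where it stood at 0.64 (limma adjusted p = 0.192, the highest over the alternatives). MYLK4, at 2.59 CPM in EV tumours, had 0 reads in 5 of 6 TAZ-4SA tumours and was called lower, but under quantile normalization its log2 fold change of -4.15 shrank to -0.56 and was not called (limma adjusted p = 0.606). Of 1968 genes at 2 to 5 CPM in EV tumours, 602 (30.6%) had 0 reads in at least 5 of the 6 TAZ-4SA libraries.

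Of 8 phosphatase genes tested, 2 were higher and 2 lower. PPP1CB, the catalytic subunit that pairs with PPP1R12A, had 293 ± 50.02 CPM in TAZ-4SA tumours and 44.3 ± 4.06 CPM in EV tumours (log2 fold change 2.71, limma adjusted p = 2.71e-05), so that both genes of the myosin phosphatase core rose. PPP1CC, another catalytic subunit gene, was higher (1.16), and PPP1R12C, a targeting subunit related to PPP1R12A, was lower (-1.56). The calls of both ended without EV tumour 1 or EV tumour 2, that of PPP1R12C also without TAZ-4SA tumours 2, 3 and 4. PPP1R14C, which encodes an inhibitor of the phosphatase, was lower and had 0 reads in 4 of 6 TAZ-4SA tumours, and its call ended without any 1 EV tumour or without TAZ-4SA tumours 2, 3 and 4.

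Of 8 genes for ROCK substrates, 3 were higher and 5 were not called. MARCKS, which crosslinks actin at the membrane, had 484 ± 207 CPM in TAZ-4SA tumours and 39.8 ± 11.9 CPM in EV tumours (log2 fold change 3.51, limma adjusted p = 9.08e-05). EZR and MSN, which encode the membrane-actin linkers ezrin and moesin, were higher by 1.34 and 0.85, and lost their calls without EV tumour 1 or EV tumour 2, MSN also without EV tumour 3 and with the length trend removed. Of 15 myosin partners, 4 were higher and 2 lower. LIMA1, an actin bundler, had 472 ± 162 CPM in TAZ-4SA tumours and 27.3 ± 1.74 CPM in EV tumours (log2 fold change 4.03, limma adjusted p = 7.41e-06). ANLN, the scaffold of the contractile ring, had 423 ± 169 CPM in TAZ-4SA tumours and 37.9 ± 5.85 CPM in EV tumours (log2 fold change 3.40, limma adjusted p = 2.78e-05). TWF1, which binds actin monomers, and SHROOM3, which recruits ROCK to cell junctions, were higher by 3.21 and 1.41, and SHROOM3 lost its call without EV tumour 1 or EV tumour 2, and with the length trend removed, where it stood at 0.38 (limma adjusted p = 0.473).

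ANLN and ECT2 act in cytokinesis, and of 10 proliferation genes set beside them 3 were higher (MKI67, TOP2A and CENPF) and 7 not called. Over all genes tested, 9.02% were called higher and 13.3% lower. MKI67 had 628 ± 167 CPM in TAZ-4SA tumours and 324 ± 25.8 CPM in EV tumours (SD, n = 6 and 3). The part of proliferation in the level of either gene was not tested.

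**Figure D5:**
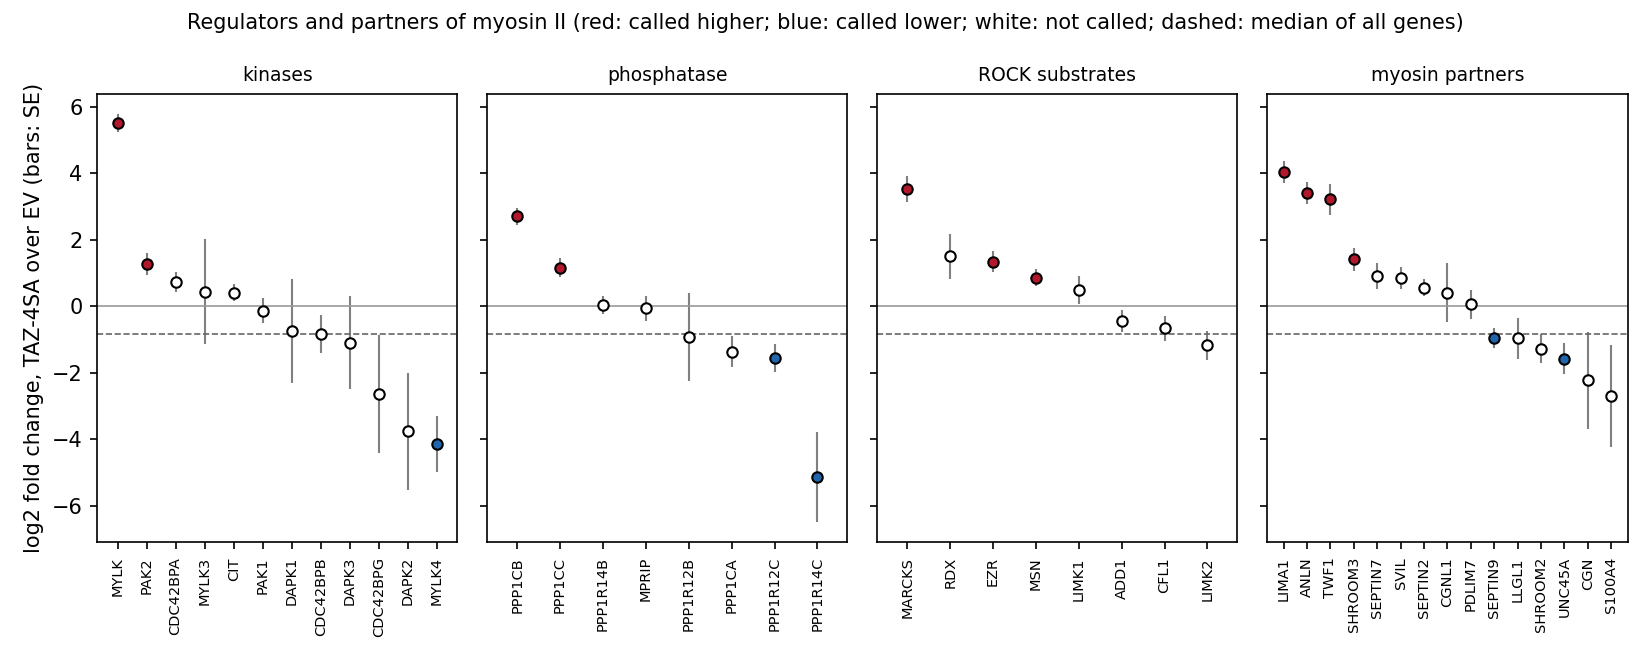
Log2 fold change of TAZ-4SA over EV with its SE for regulators and partners of myosin II in 4 roles (kinases, phosphatase, ROCK substrates and myosin partners), red where called higher, blue where called lower and white where not called. MYLK is the highest point at 5.50, and LIMA1 leads the myosin partners at 4.03. The dashed line is the median of all genes tested, -0.85.

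Of 28 other myosin genes tested, 4 were higher, 5 lower and 19 not called, with a median log2 fold change of -0.97. Without any 1 EV tumour, 2 of them were called lower, beside 5.47% to 6.36% of all genes tested. With all 9 tumours, 9.02% of all genes tested were called higher and 13.3% lower, and the median was -0.85. The 11 tested genes for chains of muscle and other class II myosins had low levels, summing with 1 more gene below the filter to 0.101 to 71.6 CPM in TAZ-4SA tumours and 61.8 to 67.3 CPM in EV tumours, and 10 of them were not called. The other one, MYH7, the slow muscle heavy chain, was called lower, but not without any 1 EV tumour or any 1 of TAZ-4SA tumours 1 to 4, without tumours 2, 3 and 4 together, or under quantile normalization. Among 17 unconventional myosins, which carry cargo or link membranes to actin, 4 were higher and 4 lower. MYO6, which walks to the minus end of actin, rose by 2.23 (limma adjusted p = 0.00391), and MYO5A, a vesicle carrier, by 1.50, though its call ended without EV tumour 2, and with the length trend removed, where it stood at 0.41 (limma adjusted p = 0.408). MYO16 had 0 reads in 5 of 6 TAZ-4SA tumours, against a mean of 3.75 CPM in EV tumours, and was called lower (limma adjusted p = 0.0047), but not under quantile normalization (0.130). Its EV level also lies between 2 and 5 CPM, where 30.6% of genes had 0 reads in at least 5 TAZ-4SA libraries.

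The 10 genes and the rest of the table were also compared by profile, as the root mean square difference of log2 CPM over the 9 tumours after centring each gene on its own mean, where a small value means a like profile. Among the 10, the closest pairs were MYH10 and MYL6 (0.40), MYL12A and MYL12B (0.49), MYH9 and ROCK2 (0.53), and ROCK1 and PPP1R12A (0.58). MYH14 was farthest from PPP1R12A (3.16). Among 8360 genes with reads in all tumours, the nearest to MYH9 were PRICKLE1 (0.18), TMEM30A (0.22), ITGA3 (0.33), PTPRF (0.34) and FRMD6 (0.35). Each was called higher, with log2 fold changes of 2.11 to 3.11, against 2.67 for MYH9. The profiles hold the difference between the groups, so a near gene has a similar fold change by that choice, which adds no support. The nearest to MYL6 were B4GALT5 (0.15), SRP14 (0.16), UBXN1 (0.18), TSPAN3 (0.19) and MRM2 (0.20), of which TSPAN3 and MRM2 were called lower. The calls of both ended without any 1 EV tumour, that of TSPAN3 also under quantile normalization, without TAZ-4SA tumour 1 and without TAZ-4SA tumours 2, 3 and 4, and that of MRM2 with the length trend removed. The 9 tumours share their libraries, depth and scaling across genes, and these values describe likeness in them only.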

How the data were processed

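Total RNA was extracted with TRIzol, and libraries were made with a SMART-Seq mRNA kit and Nextera XT, per the labels' protocols. No step that keeps the strand is recorded, so reads of overlapping and antisense genes may not have been told apart. HISAT2, edgeR and GRCh38 appear in the submitters' processing notes, with no role stated. The sources used here give no counting tool, annotation or gene filter.

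The authors deposited log2 CPM for 18364 genes, a unit read from the values: the lowest value was the same in all libraries, at 0.145 CPM, and 100% of values under 5000 reads were whole reads within a tolerance of 0.1 read once that prior was removed. CPM and reads given here were recovered that way. Library totals cover the genes of the table. The reads carry no molecular identifiers and are not independent molecules.

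The 10 genes and all gene lists were chosen with earlier results of these data known. Tumours were grouped by the labels, which do not tie them to animals, so the p-values reflect spread among these samples alone. No libraries agreed within sampling noise: the lowest chi-square per degree of freedom was 18.6 (EV 1 and EV 2). The log2 values as deposited, prior included, were fitted in limma 3.58.1 (R 4.3.3) using a trend and the robust option, for genes averaging 1 CPM or more. The fit was tested on simulated data, whose outcome is not given here, so that step adds no support to the calls. Up to 4 called genes of each list with the smallest p are named, plus the 5 genes nearest MYH9 and the 5 nearest MYL6. Transcript lengths are those of the principal protein-coding transcript in GENCODE 29. Coordinates and upstream sequences are from RefSeq (GRCh38.p14), matched by gene identifier for 18136 genes. Coding sequences were aligned with Biopython 1.88. Shares and ratios within a library have no test. The values of 1 gene named by that rule, and the counts of 2 of the lists, are not reported here.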

Additional observations from a re-analysis of the deposited data

How the results depend on the processing

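Over 24 alternatives (2 pseudocounts, 2 scalings, 2 filters, array weights, no robust step, limma-voom with and without weights by group, a replicate block, a length correction, and libraries left out), MYH9, MYH14, ROCK1 and PPP1R12A were called each time, with log2 fold changes of 1.88 to 2.88, -3.73 to -2.77, 2.04 to 3.33 and 2.82 to 4.00. MYL6 was not called in 11 of the 24, MYL12A was not called in 13, and MYL6B, MYL12B and MYH10 became called in 6, 3 and 1. No direction among the 10 genes turned. UBXN1, not called, turned to 0.0038 with the length trend removed.

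The genes called lower among the 10 numbered 2, but 1 under quantile normalization, without TAZ-4SA tumours 5 and 6, with tumours 1 to 3 of each group alone, and 1 to 3 with a library left out. The regulators called lower numbered 10, but 6 with the 10 CPM filter, 18 with array weights, and 4 to 12 with a library left out. The other myosins called lower numbered 5, but 3 under quantile normalization, 10 without a filter, 2 with the 10 CPM filter, 11 with array weights, 9 and 10 with limma-voom without and with weights by group, 3 without TAZ-4SA tumours 2, 3 and 4, 8 with tumours 1 to 3 of each group alone, and 2 to 7 with a library left out. By the fit used above, 13.3% of all genes tested were called lower, against 10.4% under quantile normalization and 36.1% with array weights. With limma-voom the share was 23.4% without and 29.7% with weights by group. It was 18.4% without a filter, 9.26% with the 10 CPM filter, and 5.47% to 17.3% with a library left out. It was 14.5% without TAZ-4SA tumours 2, 3 and 4, and 17.7% without tumours 5 and 6. The filters change how many genes are tested. For the other settings the cause was not tested.

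The labels do not say whether same-numbered tumours were paired. Deviations of same-numbered tumours correlated at 0.031, 0.0037 and -0.047, and those of differently numbered tumours at -0.042 to 0.077. With so few tumours, these values cannot show whether tumours shared a batch or an animal. With the replicate number as a block, which uses tumours 1 to 3 of each group alone, 3 of the 10 genes were higher and 1 lower (ROCK2 was not called, limma adjusted p = 0.0511, and 1.79e-05 to 0.0511 over all alternatives), 8 regulators were higher and 6 lower, and 2 other myosins were higher. The same tumours without a block gave 4 and 1, 15 and 10, and 5. With the block, 3.61% of all genes tested were called higher and 13.86% lower, against 7.99% and 17.96% without it.

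The alternatives for WWTR1, the shares and ratios, the genes named from lists, and tumours 1 to 3 alone were chosen after seeing the data. WWTR1 kept its direction in all 13 of its alternatives, and each share and ratio moved by less than 1 SD with libraries left out. With the length trend removed, the log2 ratio of essential light chains to heavy chains differed by -1.18 instead of -2.55, that of regulatory light chains turned from -0.50 to 0.88, and the MYH14 share of heavy chains differed by -30.5 instead of -31.4 percentage points; the other 6 moved by less than 1 SD. The wider spread and the missing genes of the TAZ-4SA libraries limit calls of small changes, and with 3 EV tumours a call near the threshold can rest on 1 library.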

Other observations

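Among unconventional myosins outside the genes named by rule, MYO7B was higher, at 30.9 CPM in TAZ-4SA tumours with a range of 3.45 to 80.7, against 0.557 CPM in EV tumours (limma adjusted p = 0.0102). MYO10, a motor of filopodia, was lower, at 112 CPM in TAZ-4SA tumours and 222 CPM in EV tumours (limma adjusted p = 0.0246). MYO15B was lower, at 3.03 CPM in TAZ-4SA tumours, with 0 reads in 4 of 6, against 98.8 CPM in EV tumours (limma adjusted p = 0.00988). These 3 were chosen after their values were seen. MYL9, the regulatory light chain of smooth muscle, was not called: it had 0 reads in 3 of 6 TAZ-4SA tumours and up to 24.9 CPM in another, against 4.82 to 10.5 CPM in EV tumours (limma adjusted p = 0.087).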
